A study of Mus musculus with 12 samples.

Results

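The genes of the TGF-β ligands, their receptors and the proteins that keep the ligands latent were followed in mouse mesangial cells (MMC), the smooth muscle-like cells between the capillary loops of the glomerulus. The set was chosen by gene function and holds 10 of the 25230 genes counted: the ligands Tgfb1, Tgfb2 and Tgfb3, the receptors Tgfbr1 and Tgfbr2, the co-receptors Tgfbr3 and Eng, the latent TGF-β binding proteins Ltbp1 and Ltbp3, and Tgfb1i1, a gene named for its induction by TGF-β1. All 10 had counts in every library. RNA-seq was carried out on wild-type (WT) MMC and on MMC of the lncMGC-KO5 line (KO), under serum depletion (SD) or after 24 h of TGF-β at 10 ng/ml (TGF). The groups are called WT-SD and WT-TGF in wild-type and KO-SD and KO-TGF in KO5 MMC, with 3 libraries in each. KO5 is 1 mouse line, in which Cas9 removed a short stretch at the start site of lncMGC, a long noncoding RNA that hosts a cluster of microRNAs, and the MMC were grown from isolated glomeruli. No age was taken from the labels, and WT and KO MMC are different cultures, so that genotype and culture cannot be told apart. The study calls the samples of a group independent, but the sources used here do not say whether they came from separate mice or cultures. The p-values thus measure the spread between libraries, which may be technical.

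TGF-β is secreted as an inactive complex. The ligand stays bound to its own cleaved propeptide, and LTBPs anchor this complex in the extracellular matrix until integrins, proteases or matrix proteins free the ligand. Free ligand binds the type II receptor TGFBR2, which phosphorylates the type I receptor TGFBR1, and TGFBR1 phosphorylates SMAD2 and SMAD3. The proteoglycan betaglycan (encoded by Tgfbr3) presents ligand to the type II receptor, TGF-β2 above all, and endoglin (Eng) is a co-receptor known chiefly from endothelial cells. In mesangial cells TGF-β drives matrix production in diabetic kidney disease.

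The counts on genes were between 19898050 and 22827706 per library, and 3 counts, the floor of detection used here, came to 0.131 to 0.151 CPM. The levels below are CPM, counts per library size, with the sizes scaled by TMM, which sets the bulk of genes equal between libraries. Levels of different genes are compared as RPKM, which is CPM per kilobase of exon. Changes are log2 fold changes (log2FC) from edgeR's quasi-likelihood test with adjusted p-values by Benjamini-Hochberg over the 11529 genes that reached an RPKM >1 in any library, called at FDR <5%. The spread between libraries of a group was small (biological coefficient of variation 0.0268), and changes of a few percent passed this threshold. KO-SD replicate 1 stood apart: its chi-square over genes, per degree of freedom, was 4.99 and 4.15 against replicates 2 and 3, where the other pairs of all groups had 1.35 to 2.56. Leaving it out changed no call of the 9 genes of the set that were tested. It turned the sign of the uncalled difference of Tgfbr1 between the SD groups (to -0.012). Eng and the genes outside the set were not read this way. Scaling by library size alone lowered the median log2FC of all genes by 0.16 in the response of WT to TGF-β and by 0.20 in that of KO. It lowered it by 0.08 for KO against WT in SD and by 0.12 in TGF. Under that scaling 2642 genes rose and 6056 fell with TGF-β in WT, against 4152 and 4199 with TMM. In KO the numbers were 2298 and 6716, against 4028 and 4512. Between the genotypes it gave 2445 higher and 4192 lower in KO-SD, against 3566 and 2908, and 1643 higher and 5408 lower in KO-TGF, against 3142 and 3201. For the difference of the responses it gave 686 higher and 2648 lower, against 1000 and 1915.

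Of the mesangial markers, Pdgfrb was between 288 and 384 CPM in the means of the 4 groups. Itga8 was between 0.638 and 3.05 CPM, and Des was 7.67 CPM in WT-SD, 5.62 in WT-TGF, 0.529 in KO-SD and 0.247 in KO-TGF. The podocyte gene Nphs1 had at most 1 count in any library, and the endothelial genes Cdh5 and Emcn at most 2. lncMGC is not among the genes counted, and Mirg, which the study places at the end of lncMGC, was 2.33 CPM in WT-SD, 3.59 in WT-TGF, 3.67 in KO-SD and 4.27 in KO-TGF. Its mean was thus higher in the libraries labelled KO at either treatment, without overlap in SD and with overlap in TGF. The genotype labels were not checked by these counts, and KO below means the libraries labelled KO.

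The 3 ligand genes lie on different chromosomes. In GRCm38 (mm10), Tgfb1 (NCBI gene 21803) is at chr7:25687002-25705077 on the plus strand, Tgfb2 (21808) at chr1:186622787-186709697 on the minus strand and Tgfb3 (21809) at chr12:86056743-86079041 on the minus strand. Tgfb3 shares its chromosome with the lncMGC locus, and 23.66 Mb separate it from Mirg. The 250 bases before the transcription start are shown for Tgfb1 and Tgfb2, as these ligands had the largest and one of the smaller rises with TGF-β, a choice made with their values known. They are from RefSeq (GRCm38.p6), 5′ to 3′ on the strand of the gene, at chr7:25686752-25687001 and at chr1:186705990-186706239. The start of Tgfb2 lies inside the annotated span of the gene. Capitals mark the GC box GGGCGG on either strand, the E-box CACGTG and the TATA box TATAAA.
Tgfb1: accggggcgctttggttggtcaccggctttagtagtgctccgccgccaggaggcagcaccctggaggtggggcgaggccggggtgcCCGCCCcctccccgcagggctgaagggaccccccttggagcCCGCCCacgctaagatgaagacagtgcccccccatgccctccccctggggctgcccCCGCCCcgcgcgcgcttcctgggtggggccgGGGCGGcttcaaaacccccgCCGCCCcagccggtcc
Tgfb2: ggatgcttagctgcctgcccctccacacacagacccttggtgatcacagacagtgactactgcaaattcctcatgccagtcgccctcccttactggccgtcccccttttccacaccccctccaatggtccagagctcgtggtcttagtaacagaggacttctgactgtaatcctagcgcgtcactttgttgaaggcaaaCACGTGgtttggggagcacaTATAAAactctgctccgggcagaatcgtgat

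The window searched reached from 250 bases before to 50 bases after the start, and RefSeq gave 9 such windows for 7 of the 10 genes, with none for Tgfb3, Tgfbr3 and Tgfb1i1. The window of Tgfb1 had a GC content of 77% and 6 GC boxes, 5 of them in the stretch shown and 1 just after the start, and no TATAAA. That of Tgfb2 had a GC content of 54.3%, close to the median of 52.7% over 32851 windows, and no GC box. Its TATAAA began 31 bases and its CACGTG 51 bases before the start, and no matches overlapped. A GC box was found in 35.7% of all windows, TATAAA in 13.6% and CACGTG in 7.15%, on both strands. Of the other genes, Tgfbr1 had 2 GC boxes in one of its windows, and Ltbp3 had the AP-1 sequence TGANTCA 6 bases before its start, which 7.81% of windows hold. The short SMAD sequence CAGAC was in 49.6% of windows and the E-box CACCTG in 20.2%, the latter in none of the 9 windows. These matches describe the letters of the windows only.

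**Figure D1:**
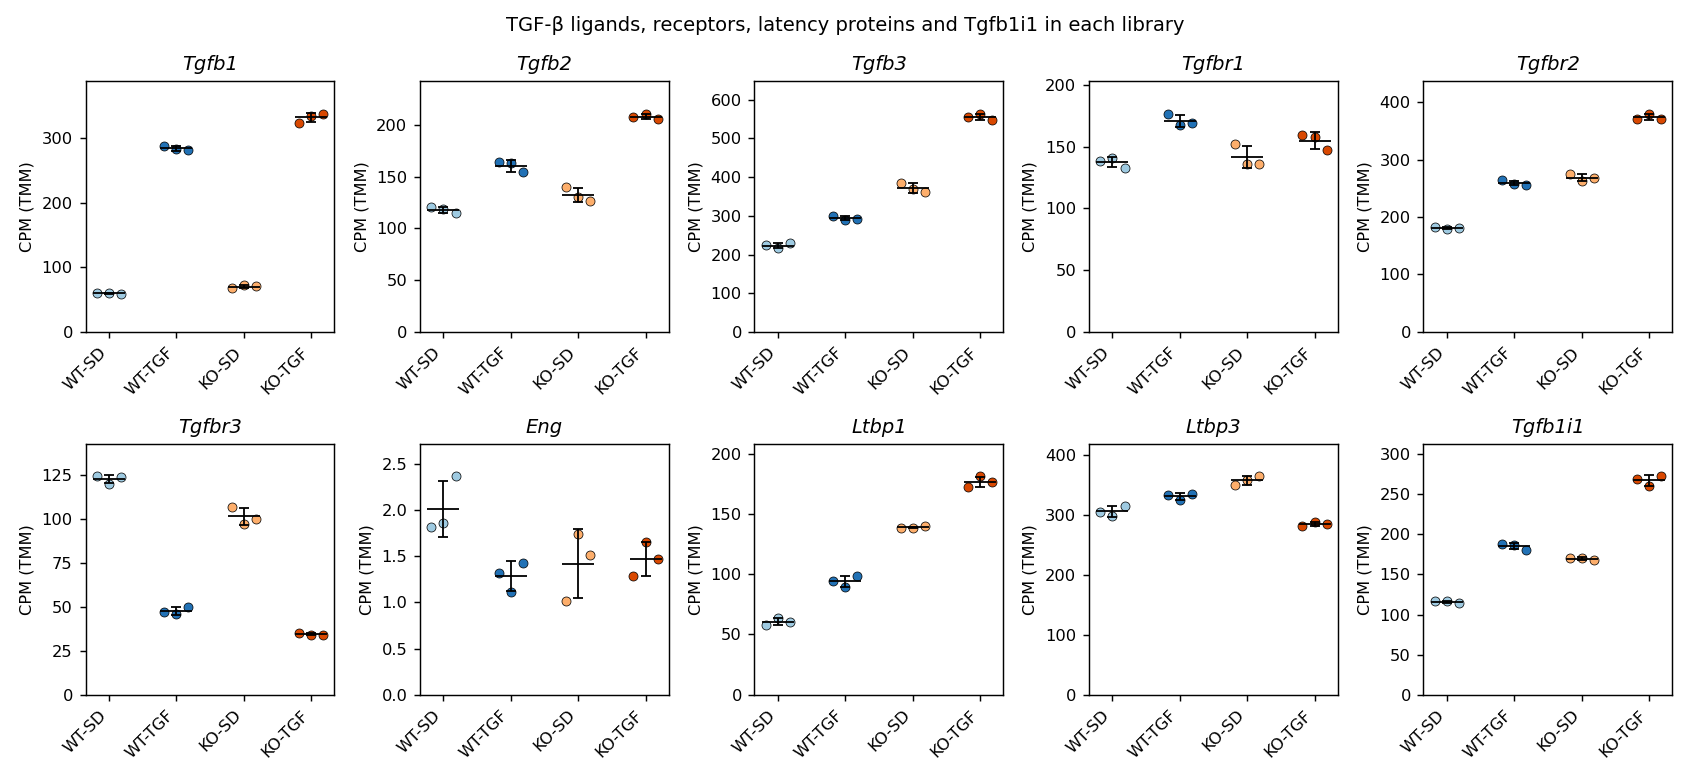
Levels of the 10 genes in CPM (linear axis, library sizes scaled by TMM) in each of the 12 libraries, with the mean and SD of the 3 libraries of a group as black bars. Tgfb1 sits below 73 CPM in every SD library and above 280 CPM in every TGF-β library, Tgfbr3 shows the opposite order, and Eng stays below 2.4 CPM throughout.

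The first question was how the genes of the pathway respond to its own ligand. In WT MMC, 8 of the 9 genes past the RPKM limit were higher with TGF-β and 1, Tgfbr3, was lower. The background was large, since 36% of all genes tested were higher and 36.4% lower. In KO, 7 were higher and 2, Tgfbr3 and Ltbp3, were lower, where 34.9% of all genes were higher and 39.1% lower. The median log2FC of the 9 genes was 0.44 in WT and 0.48 in KO, against -0.0049 and -0.025 for all genes tested. Scaling by library size alone gave 7 higher and 1 lower in WT and 6 higher and 2 lower in KO. Of all 11529 genes it gave 2642 higher and 6056 lower in WT, and 2298 and 6716 in KO.

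Tgfb1 had the largest change of the set. It was 59.6, 59.6 and 59.3 CPM in the WT-SD libraries and 288, 283 and 281 CPM in WT-TGF. All WT-TGF libraries were far above all WT-SD libraries, a log2FC of 2.25 (standard error 0.0301, adjusted p = 2.86e-32) or 4.77-fold. In KO, Tgfb1 was 67.8, 72.1 and 71.0 CPM in SD and 324, 334 and 337 CPM in TGF, again without overlap. The log2FC in KO was 2.24 (standard error 0.0294, adjusted p = 2.10e-32).

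Tgfb2 rose less. Its levels were 120.5, 119 and 115 CPM in WT-SD and 164, 163 and 154 CPM in WT-TGF, with no overlap (log2FC 0.44, standard error 0.0330, adjusted p = 3.71e-13). In KO it rose from 139.8, 130.2 and 127 CPM to 208, 211 and 206 CPM (log2FC 0.65, adjusted p = 1.16e-17), and every KO-TGF library was above every library of the other groups.

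Tgfb3 had the highest level of the ligands in every group. It was 224, 216 and 229 CPM in WT-SD and 301, 289 and 293 CPM in WT-TGF (log2FC 0.40, standard error 0.0281, adjusted p = 8.59e-14). In KO it was 385, 369 and 360.4 CPM in SD and 554, 564 and 548 CPM in TGF (log2FC 0.58, adjusted p = 2.29e-18). The 4 groups did not overlap, and the KO-SD libraries were above the WT-TGF libraries.

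Of the receptors, Tgfbr2 (chr9:116087695-116175363, minus strand) encodes the receptor that binds free ligand first. It was 182, 179 and 181 CPM in WT-SD and 264, 258 and 257 CPM in WT-TGF (log2FC 0.52, standard error 0.0261, adjusted p = 2.09e-17). The KO levels were 275, 263 and 268 CPM in SD and 370.3, 379.7 and 370.3 CPM in TGF (log2FC 0.48, adjusted p = 6.95e-17). It was thus higher with TGF-β in both genotypes, without overlap, and the WT-TGF and KO-SD libraries overlapped.

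Tgfbr1 (chr4:47353222-47414926, plus strand), the type I receptor that carries the signal to the SMADs, changed little. It was 138, 141 and 133 CPM in WT-SD and 177, 167 and 169 CPM in WT-TGF (log2FC 0.32, adjusted p = 7.35e-09). In KO it was 152, 136 and 136 CPM in SD and 159, 158 and 147 CPM in TGF. The KO libraries overlapped, with KO-SD replicate 1 above KO-TGF replicate 3, and the log2FC of 0.13 (adjusted p = 0.00319) became -0.076 (adjusted p = 0.0627) with scaling by library size alone.

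The co-receptor gene Tgfbr3 (chr5:107106567-107289629, minus strand) fell. Its levels were 124, 120.3 and 124 CPM in WT-SD and 47.3, 45.9 and 50.04 CPM in WT-TGF (log2FC -1.37, standard error 0.0402, adjusted p = 1.79e-23). In KO they were 107, 97.4 and 100.4 CPM in SD and 34.9, 34.1 and 34.3 CPM in TGF (log2FC -1.56, standard error 0.0445, adjusted p = 4.33e-24). No TGF-β library reached the level of any SD library.

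Eng (chr2:32646595-32682669, plus strand), the other co-receptor, was close to the limit of use with 22 to 52 counts per library and did not pass the RPKM limit. It was 1.82, 1.86 and 2.37 CPM in WT-SD and 1.32, 1.11 and 1.43 CPM in WT-TGF. In KO the levels were 1.01, 1.74 and 1.51 CPM in SD and 1.29, 1.66 and 1.47 CPM in TGF. Fitted together with every gene that had counts, the difference in WT was a log2FC of -0.62 (standard error 0.215, adjusted p = 0.00787), without overlap, and that in KO was 0.07 (adjusted p = 0.875, 95% interval -0.39 to 0.52). The summed level of 6 markers of glomerular endothelial cells was 32.9 to 33.3 CPM in WT-SD, 20.1 to 22.5 in WT-TGF, 17.2 to 18.4 in KO-SD and 9.25 to 10.9 in KO-TGF. Nearly all of it was Ehd3, with 2 to 4 of the 6 markers at or under 3 counts in every library of a group, and the part of such cells in the values of Eng was not tested. In bulk RNA, fewer cells of a type and less RNA per cell cannot be told apart.

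Of the latency genes, Ltbp1 (chr17:75005480-75392512, plus strand) rose in both genotypes. It was 57.9, 63.8 and 60.3 CPM in WT-SD and 94.5, 89.4 and 98.4 CPM in WT-TGF (log2FC 0.63, adjusted p = 3.20e-15). The KO libraries had 138.2, 138.4 and 139.5 CPM in SD and 172, 181 and 176 CPM in TGF (log2FC 0.35, adjusted p = 1.57e-10). Each KO-SD library was above each WT-TGF library.

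Ltbp3 (chr19:5740900-5758536, plus strand), the second LTBP, moved in opposite directions in WT and KO. In WT it was 305, 298 and 316 CPM in SD and 334, 325 and 336 CPM in TGF, a log2FC of 0.11 (standard error 0.0261, adjusted p = 0.000263). This call was lost with scaling by library size alone (log2FC -0.044, adjusted p = 0.122). In KO it fell from 350.2, 359 and 365 CPM to 281, 289 and 285 CPM (log2FC -0.33, standard error 0.0264, adjusted p = 1.58e-12), and the KO-TGF libraries were the lowest of all.

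Tgfb1i1 (chr7:128246812-128255699, plus strand) encodes Hic-5, an adaptor protein of focal adhesions, and lies 102.5 Mb from Tgfb1 on the same chromosome. It was 117, 116 and 115 CPM in WT-SD and 189, 186 and 181 CPM in WT-TGF (log2FC 0.68, adjusted p = 1.13e-19). In KO it was 171, 171 and 168 CPM in SD and 269.8, 260.1 and 272 CPM in TGF (log2FC 0.65, adjusted p = 6.80e-20). The 4 groups did not overlap, and KO-SD lay below WT-TGF.

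**Figure D2:**
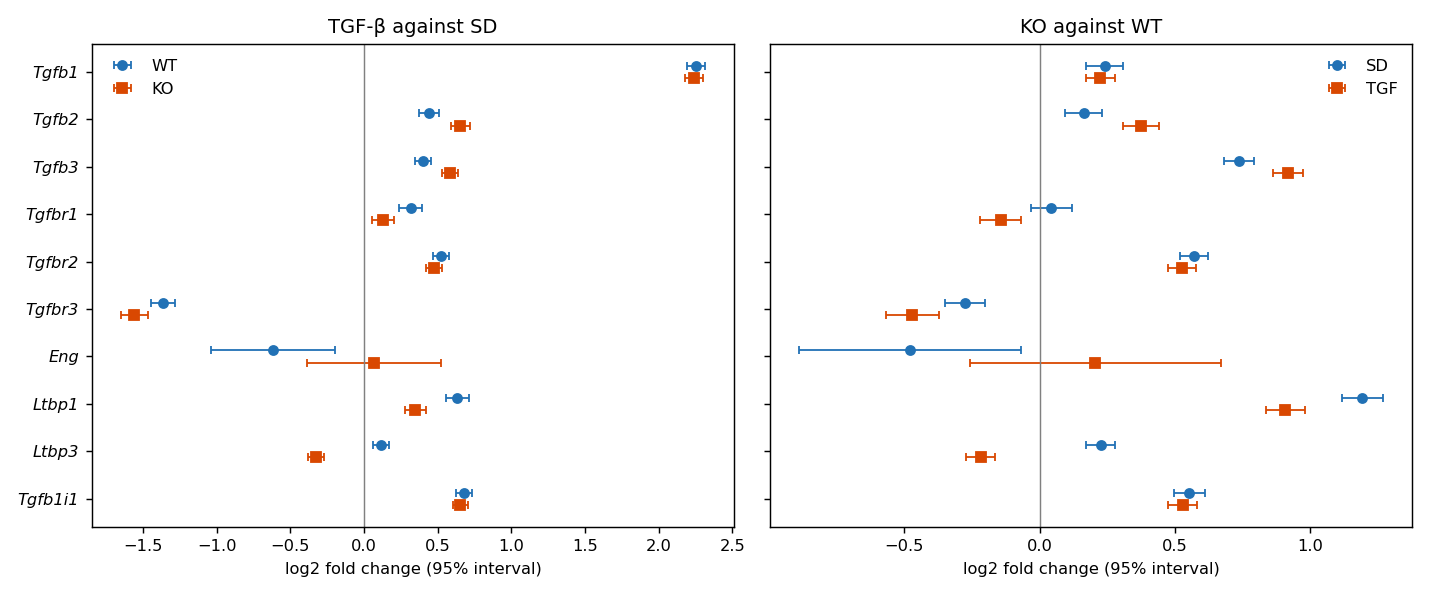
Log2 fold changes of the 10 genes with 95% intervals from the quasi-likelihood fits (Eng from the fit of all genes), left for TGF-β against SD in WT (circles) and KO (squares), right for KO against WT in SD (circles) and TGF (squares). Tgfb1 stands alone at 2.25 and 2.24 on the left, Tgfbr3 is lower in all 4 comparisons, and the points of Ltbp3 lie on opposite sides of 0 in both panels (with scaling by library size alone its value in WT is -0.044).

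The second question was whether the set differs between the genotypes at the same treatment. These comparisons use the same libraries as those above. In SD, 7 of the 9 genes tested were higher in KO than in WT, 1 (Tgfbr3) was lower and 1 (Tgfbr1) was not called, where 30.9% of all genes tested were higher and 25.2% lower. In TGF, 6 were higher and 3 (Tgfbr1, Tgfbr3 and Ltbp3) lower, where 27.3% of all genes were higher and 27.8% lower. The medians of the 9 genes were 0.24 and 0.38, against 0.019 and -0.0035 for all genes tested. Scaling by library size alone gave the same numbers, 7 and 1 in SD and 6 and 3 in TGF. Of all 11529 genes it gave 2445 higher and 4192 lower in SD, and 1643 and 5408 in TGF.

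In SD, Ltbp1 showed the largest difference between genotypes of the 9 genes, 139 ± 0.708 CPM (SD, n = 3) in KO-SD against 60.6 ± 2.97 CPM in WT-SD. The log2FC was 1.19 (standard error 0.0376, adjusted p = 3.58e-22) in SD and 0.91 (standard error 0.0354, adjusted p = 8.56e-20) in TGF, where KO had 176 ± 4.49 and WT 94.1 ± 4.50 CPM. Tgfb3 came next in SD and was level with Ltbp1 in TGF, at 371 ± 12.7 CPM in KO-SD against 223 ± 6.25 CPM in WT-SD (log2FC 0.74, adjusted p = 3.91e-20) and at 556 ± 7.66 against 294 ± 6.01 CPM in TGF (0.92, adjusted p = 1.02e-22). Libraries of the genotypes did not overlap for either gene.

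Tgfbr2 and Tgfb1i1 were also higher in KO, with log2FC of 0.57 (adjusted p = 4.85e-18) and 0.55 (adjusted p = 6.09e-17) in SD and 0.53 in TGF for both (adjusted p = 1.83e-17 and 3.98e-17). Tgfb1 and Tgfb2 differed by less. Tgfb1 had a log2FC of 0.24 in SD (1.18-fold, adjusted p = 3.43e-07) and of 0.22 after TGF-β (1.17-fold, adjusted p = 7.55e-09). For Tgfb2 the log2FC was 0.16 in SD (adjusted p = 0.000129) and 0.38 after TGF-β (adjusted p = 1.54e-11).

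Tgfbr3 was lower in KO, by a log2FC of -0.28 in SD (adjusted p = 1.33e-07) and -0.47 after TGF-β (adjusted p = 6.46e-10). Tgfbr1 differed by 0.04 in SD (adjusted p = 0.337, 95% interval -0.03 to 0.12), with overlapping libraries. In TGF it was lower in KO by -0.14 (adjusted p = 0.00155), a call lost without KO-TGF replicate 3 (log2FC -0.09, adjusted p = 0.0594). Ltbp3 was higher in KO in SD (log2FC 0.23, adjusted p = 1.02e-08) and lower in TGF (-0.22, adjusted p = 2.63e-08), both without overlap. For Eng the log2FC was -0.48 between the SD groups (adjusted p = 0.0492) and 0.21 between the TGF groups (adjusted p = 0.530), from the fit without the RPKM limit. Counted over all 10 genes, the libraries of the genotypes did not overlap for 9 genes in SD and 9 in TGF, and those of the treatments for 10 genes in WT and 8 in KO. Over all genes tested such a gap was found for 59.1% and 61.5% between the genotypes and for 75.1% and 74.4% between the treatments.

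The genotypes also differed in markers of other cell types. The summed level of 7 macrophage markers was 24.6 to 26.0 CPM in WT-SD and 15.0 to 18.5 in WT-TGF, against 2.06 to 2.22 in KO-SD and 0.802 to 1.45 in KO-TGF, and Adgre1 had no count in any KO library. The 5 podocyte markers summed to 459 to 467 CPM in WT-SD, 455 to 474 in WT-TGF, 218 to 227 in KO-SD and 205 to 220 in KO-TGF. The 6 tubular markers summed to 67.7 to 74.4 CPM in WT-SD, 17.2 to 18.8 in WT-TGF, 12.9 to 15.0 in KO-SD and 4.01 to 4.26 in KO-TGF. Nearly all of this was Lrp2 and Cdh16, and 3 of the 6 were at or under 3 counts in every library. The sum of the 5 mesangial markers was set by Acta2, which is also a response gene below, and was higher in KO, from 1802 to 1916 CPM in WT-SD and 3251 to 3376 in WT-TGF to 3521 to 3629 in KO-SD and 6615 to 6679 in KO-TGF. Of the others, Des was lower in KO at either treatment (values above). After TGF-β so were Itga8 (1.61 CPM in WT and 0.638 in KO) and Pdgfrb (384 and 358 CPM). In SD, Itga8 was 2.89 CPM in WT and 3.05 in KO, and Pdgfrb 288 and 306 CPM. Gata3 was higher in KO, at 4.03 CPM in WT-SD, 4.06 in WT-TGF, 7.21 in KO-SD and 9.12 in KO-TGF. The 4 fibroblast markers, nearly all Col1a1, another response gene, summed to 4142 to 4510 CPM in WT-SD, 7788 to 8182 in WT-TGF, 9354 to 10403 in KO-SD and 15500 to 16107 in KO-TGF. Pdgfra, a marker of fibroblasts, was lower in KO, at 3.54 CPM in WT-SD, 0.646 in WT-TGF, 1.97 in KO-SD and 0.212 in KO-TGF. Dpt, another, was higher in KO, at 0.0296 CPM in WT-SD, 0.218 in WT-TGF, 0.543 in KO-SD and 0.869 in KO-TGF. It had at most 18 counts in a library, and Lum, the remaining marker, at most 3. The part of such cells in the differences of the 10 genes was not tested.

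The third question, whether KO and WT respond differently to TGF-β, was tested as the interaction (the log2FC with TGF-β in KO minus that in WT). Of the 9 genes, 2 had a higher log2 response in KO, 4 a lower one and 3 neither, where 8.67% of all genes tested had a higher and 16.6% a lower one. The median was -0.045, against -0.031 for all genes. The shares over all genes depend on the processing: DESeq2 called 1019 higher and 1335 lower, against 1000 and 1915 here. Tgfb2 and Tgfb3 rose by more in KO, by 0.21 (standard error 0.0462, adjusted p = 0.000676) and 0.18 (standard error 0.0389, adjusted p = 0.000613) on the log2 scale. Ltbp3 had the largest difference, -0.44 (standard error 0.0371, adjusted p = 7.27e-11), and Ltbp1 rose by less in KO, by -0.28 (adjusted p = 7.75e-05).

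Tgfbr1 (-0.19, adjusted p = 0.00812) and Tgfbr3 (-0.20, adjusted p = 0.0149) were called with less margin. Without KO-TGF replicate 3 neither was called (-0.11, adjusted p = 0.139, and -0.15, adjusted p = 0.0969). The call of Tgfbr3 was also lost with DESeq2 (-0.17, adjusted p = 0.0772), and when WT-TGF replicate 3 (-0.16) or replicate 1 (-0.17) or 2 (-0.15) of KO-TGF was left out. For Tgfb1 the difference was -0.015 (adjusted p = 0.847, 95% interval -0.10 to 0.07), for Tgfb1i1 -0.023 (adjusted p = 0.724, interval -0.10 to 0.06) and for Tgfbr2 -0.045 (adjusted p = 0.413, interval -0.12 to 0.03). Eng was at 0.69 (adjusted p = 0.131, interval 0.07 to 1.31).

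Compared per length of merged exons, Tgfb3 had the highest RPKM of the set in every group, from 65.9 in WT-SD to 164 in KO-TGF. Eng had the lowest, from 0.319 to 0.498 RPKM. The order depends on these lengths, 3383 bases for Tgfb3 and 5042 for Tgfb1, and other lengths were not tried. In WT-TGF the means in CPM of Tgfb3 and Tgfb1 were close (294 and 284). Tgfb1 ranked 8 of 10 in WT-SD (11.8 RPKM) and in KO-SD (13.9 RPKM) and came after Tgfb3 alone in WT-TGF (56.3 RPKM) and KO-TGF (65.8 RPKM). In WT-SD the order was Tgfb3, Ltbp3 (33.8 RPKM), Tgfbr2, Tgfbr1, Tgfb1i1, Tgfb2 (20.4 RPKM), Tgfbr3, Tgfb1, Ltbp1 (5.67 RPKM) and Eng. There, Tgfbr1 and Tgfb1i1, and Tgfb1i1 and Tgfb2, overlapped between libraries, as did Tgfb2 and Tgfbr1 in WT-TGF and in KO-SD. In KO-TGF no neighbors overlapped, with Tgfb1i1 (47.9 RPKM) and Tgfbr2 (45.6 RPKM) after Tgfb1 and with Tgfbr3 down at 5.26 RPKM.

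The mix of the ligand mRNAs shifted with both treatment and genotype. The summed RPKM of the 3 ligands was 98.1 ± 1.60 (SD, n = 3) in WT-SD, 171 ± 2.90 in WT-TGF, 147 ± 4.57 in KO-SD and 266 ± 2.91 in KO-TGF. The share of Tgfb1 was 12.03% ± 0.222 in WT-SD and 32.9% ± 0.145 in WT-TGF, and 9.52% ± 0.560 in KO-SD and 24.7% ± 0.502 in KO-TGF. Tgfb3 made up 67.2% ± 0.869 in WT-SD, 50.9% ± 0.487 in WT-TGF, 74.9% ± 0.243 in KO-SD and 61.7% ± 0.415 in KO-TGF. So the share of Tgfb1 was higher with TGF-β and lower in KO, and that of Tgfb3 the reverse.

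Tgfb2 held 20.8% ± 0.681 in WT-SD, 16.2% ± 0.426 in WT-TGF, 15.6% ± 0.319 in KO-SD and 13.5% ± 0.0883 in KO-TGF. The RPKM ratio of Tgfbr2 to Tgfbr1 was 1.05 ± 0.0371 in WT-SD, 1.21 ± 0.0174 in WT-TGF, 1.52 ± 0.0662 in KO-SD and 1.93 ± 0.0776 in KO-TGF. In each of the 20 comparisons of these 5 measures, between treatments or genotypes, the 3 libraries against 3 did not overlap. Each gave p = 0.1 in an exact two-sided permutation test, the smallest this design allows, and 0.1 after adjustment over the 20. Without division by exon length the share of Tgfb3 was 55.6% in WT-SD and 39.8% in WT-TGF, and that of Tgfb1 14.9% and 38.5%.

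**Figure D3:**
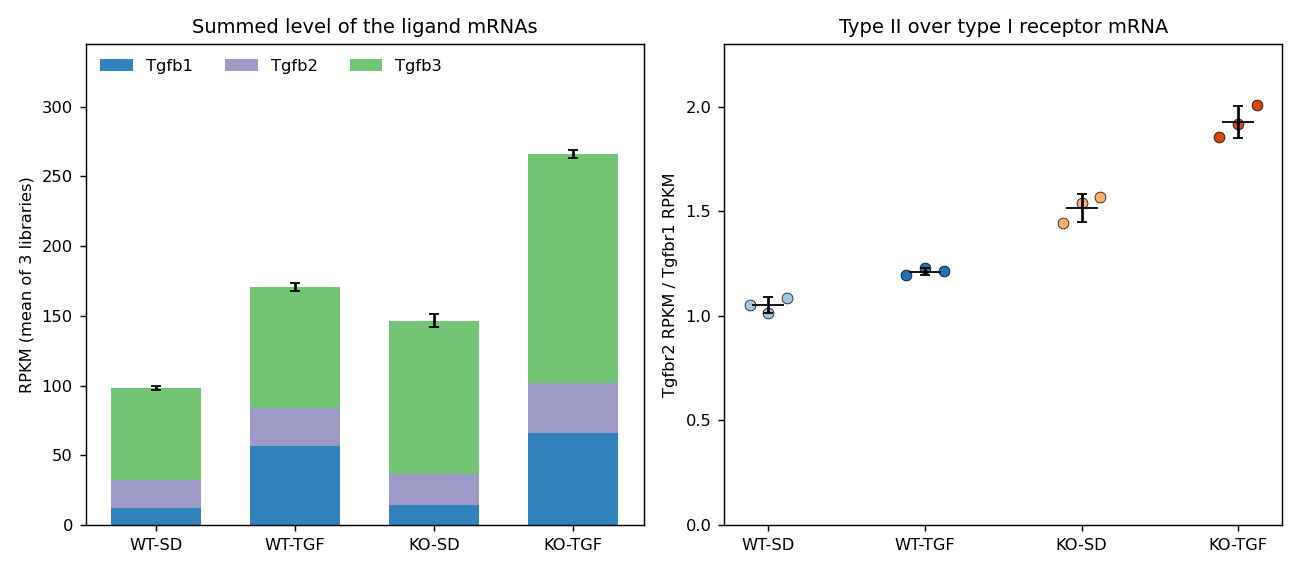
Left, summed RPKM of Tgfb1, Tgfb2 and Tgfb3 in each group (bars from 0, stacked means of 3 libraries, error bars SD of the sum). Right, the ratio of Tgfbr2 to Tgfbr1 RPKM per library (points) with mean and SD: the sum reads 98.1, 171, 147 and 266 RPKM and the ratio 1.05, 1.21, 1.52 and 1.93 from WT-SD to KO-TGF.

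Across the 12 libraries, the genes whose log2 CPM was most like that of a ligand or receptor gene were found by Pearson's r among the genes tested, as a description in which the libraries of a group are not independent points. For Tgfb1 these were Lmna, Ppp1r13l and Ice1 (r of 0.999, 0.999 and 0.998). For Tgfb2 they were Ppp1r18, Nars and Ankrd1 (0.996, 0.995 and 0.995), and for Tgfb3 Ryk, Apobr and Robo1 (0.994, 0.994 and 0.993). For Tgfbr2 they were Msrb3, Acta2 and Sparc (0.997, 0.997 and 0.996), for Tgfbr3 Prr12, Col4a5 and Sesn1 (0.999, 0.998 and 0.998) and for Tgfbr1 Prkaa1, Vps37a and Pdcl (0.976, 0.964 and 0.958). Within the set, Tgfbr2 and Tgfb1i1 had r = 0.986 and Tgfb1 and Tgfbr3 r = -0.986. Eng was not among the genes tested and has no such value.

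Other genes of the pathway were read from 5 lists. Of 20 genes of latency and activation, 17 were tested, and with TGF-β 13 were higher and 4 lower in WT and 12 higher and 5 lower in KO (12 and 4, and 10 and 6, with scaling by library size alone). Of all genes tested, 36% were higher and 36.4% lower in WT and 34.9% and 39.1% in KO. With library size alone 2642 of the 11529 genes were higher and 6056 lower in WT, and 2298 and 6716 in KO. The median log2FC of the 17 genes with TMM were 0.57 and 0.65, against -0.0049 and -0.025 for all genes tested. Itgb3, the β3 integrin chain, was 67.3 ± 2.58 CPM in WT-SD and 278 ± 8.93 in WT-TGF (log2FC 2.05 in WT and 2.01 in KO), and the microfibril gene Fbn1, whose product binds LTBPs, changed by 1.49 and 1.46. The largest decreases were in Dcn, the gene of decorin, a proteoglycan that binds TGF-β (-1.45 in WT and -1.65 in KO), and in Itgb8, the β8 chain of an integrin that activates TGF-β (-0.98 and -1.45). All of these passed FDR <5%.

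The following genes of this list were singled out after their values were seen. Fmod, the gene of fibromodulin, another proteoglycan that binds TGF-β, rose in WT from 51.4 ± 2.60 to 71.8 ± 1.13 CPM and fell in KO from 69.2 ± 1.29 to 30.0 ± 0.221 CPM, an interaction of -1.69 (adjusted p = 9.09e-20). Emilin1, whose product limits the processing of the TGF-β precursor, in WT rose from 178 ± 4.79 to 361 ± 10.0 CPM, and in KO from 164 ± 10.4 to 199 ± 2.50 CPM (interaction -0.75, adjusted p = 1.43e-13). Its call in KO was lost with scaling by library size alone (log2FC 0.074, adjusted p = 0.0544). Of the other LTBPs, Ltbp2 went from 602 ± 8.01 to 666 ± 9.20 CPM in WT and rose from 344 ± 6.46 to 635 ± 10.97 CPM in KO, a log2FC of 0.15 against 0.88 (interaction 0.74, adjusted p = 3.60e-17). The call of Ltbp2 in WT was lost with scaling by library size alone (-0.01, adjusted p = 0.633). Ltbp4 had log2FC of -0.17 in WT and -0.47 in KO.

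Among 10 other type I and type II receptors of the superfamily, 7 were tested, with 3 higher and 3 lower in WT and 3 higher and 2 lower in KO (2 and 4, and 3 and 4, with library size alone), where 36% of all genes were higher and 36.4% lower in WT and 34.9% and 39.1% in KO. The numbers of all genes with library size alone are those given for latency and activation. Acvr1, the activin and BMP type I receptor ALK2, rose by 1.2 in WT and 1.26 in KO and Bmpr2, the BMP type II receptor, by 0.44 and 0.36, while the activin receptor genes Acvr2b (-0.60 and -0.63) and Acvr1b (-0.45 and -0.58) fell.

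Of 13 partners and turnover factors of the receptors, 12 were tested, with 6 higher and 5 lower in WT and 7 higher and 4 lower in KO (5 and 6 in both with library size alone). The shares of all genes are those given for the receptors, and their numbers with library size alone those given for latency and activation. Pmepa1, a membrane protein gene whose product binds SMADs and limits signaling, rose from 171 ± 7.12 to 1039.5 ± 7.46 CPM in WT, by 2.60 on the log2 scale, and by 2.29 in KO. Smurf1, a ubiquitin ligase gene, rose by 0.61 and 0.63. Nedd4l, another ubiquitin ligase gene, fell (-1.23 and -1.10), as did Dab2, an endocytic adaptor gene (-0.79 and -1.30).

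All 9 genes of the intracellular SMAD pathway were tested. In WT 4 were higher, 2 lower and 3 not called, and in KO 3 were higher, 4 lower and 2 not called. The shares of all genes were the same 36% and 36.4% in WT and 34.9% and 39.1% in KO. With library size alone the 9 genes gave 3 higher and 4 lower in WT and 3 higher and 6 lower in KO. Of all 11529 genes, that scaling gave 2642 higher and 6056 lower in WT, and 2298 and 6716 in KO. The call of Ski, a co-repressor gene, in KO with TMM (-0.056, adjusted p = 0.0404) was not made by DESeq2 (adjusted p = 0.196). The inhibitor genes Skil and Smad7 rose (1.34 and 1.33, and 0.88 and 0.87). Smad6, an inhibitor of BMP signals (-0.70 and -0.69), and Smad3, which carries the TGF-β signal (-0.50 and -0.48), fell. Between the genotypes, 4 of the 9 were lower in KO in SD and 6 in TGF (7 and 9 with library size alone), where 25.2% and 27.8% of all genes tested were lower (4192 and 5408 genes with library size alone). The medians of the 9 genes were -0.08 and -0.10, against 0.019 and -0.0035 for all genes. With library size alone they were -0.16 and -0.22, against -0.056 and -0.125 for all genes. Of the 6, Smad3 (adjusted p = 0.139) and Tgif1 (adjusted p = 0.0947) were not called with DESeq2. The list of latency and activation had 9 genes higher and 5 lower in KO in SD, and 7 and 7 in TGF. The other receptors had 3 and 3, and 4 and 3, and the receptor partners 7 and 3, and 5 and 5. With library size alone, latency and activation had 9 and 8, and 6 and 9. The receptors then had 2 and 3, and 3 and 3, and the partners 6 and 3, and 2 and 5. Of all genes tested, 30.9% were higher in SD and 27.3% in TGF. With library size alone 2445 of the 11529 genes were higher in SD and 1643 in TGF.

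All 6 response genes read here, listed as known targets of TGF-β, rose with it in WT, and 5 rose in KO. Of all genes tested, 36% were higher in WT and 34.9% in KO. The interaction was called lower for 5 of the 6, against 16.6% of all genes. Between the genotypes, 6 were higher in KO in SD and 5 in TGF, against 30.9% and 27.3% of all genes. With library size alone 5 were higher in SD, and 5 higher and 1 lower in TGF. Of all 11529 genes, that scaling gave 2445 higher in SD, and 1643 higher and 5408 lower in TGF. Ccn2 (listed as Ctgf), a matricellular protein gene, had log2FC of 2.36 in WT and 2.25 in KO, and the contractile genes Tagln and Acta2 of 1.73 and 1.57 and of 0.90 and 0.95. The matrix genes Col1a1 and Fn1 rose by 0.90 and 0.67 and by 0.79 and 0.50. Tgfbi, a matrix protein gene, rose from 0.480 ± 0.124 to 2.59 ± 0.115 CPM in WT. KO MMC had 4.86 ± 0.409 CPM in SD and 3.85 ± 0.198 CPM in TGF, a log2FC of -0.34 (adjusted p = 0.0214) that DESeq2 did not call (adjusted p = 0.112), and the interaction was -2.76 (adjusted p = 1.62e-09). Tgfbi passed the RPKM limit, taken before TMM scaling, only through KO-SD, the group where it was highest. Its rise in WT, its difference in SD and its interaction rest on 8 to 13 counts per WT-SD library. The numbers of response genes above include Tgfbi.

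**Figure D4:**
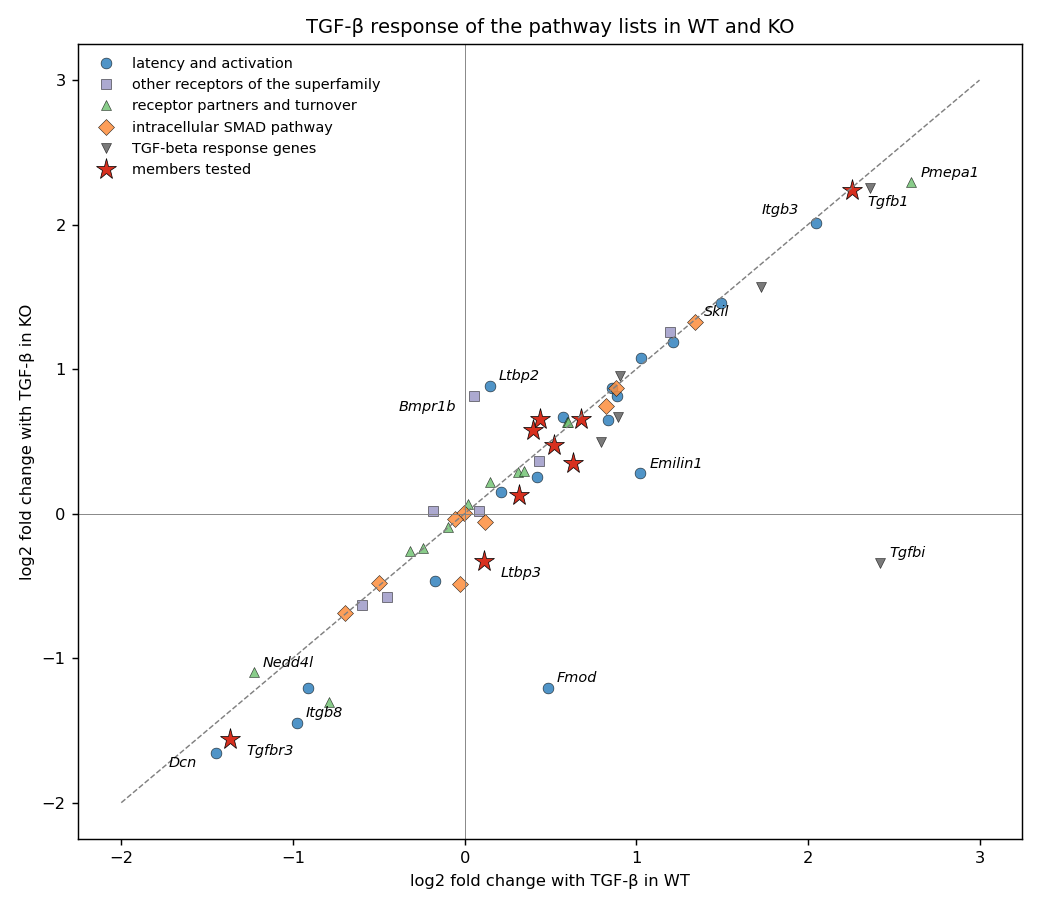
Log2 fold change with TGF-β in WT (horizontal) and in KO (vertical) of each tested gene of the 5 lists and of the 9 tested genes of the set (stars). The dashed line marks equal responses. Tgfb1 (2.25, 2.24) and Tgfbr3 (-1.37, -1.56) lie near it, and Tgfbi (2.42, -0.34) and Fmod (0.48, -1.20) lie far below. Tgfbi had 8 to 13 counts per library in WT-SD.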

How the data were processed

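RNA-seq libraries of MMC were placed in 4 groups of 3 by their titles. The authors made mRNA libraries, sequenced them from a single end, mapped the reads to mm10 (TopHat) and assigned them to RefSeq genes by strand (HTSeq-count), discarding alignments of low quality. What the authors deposited are the resulting raw counts, whole numbers for each gene and library. Reads that map to several places are absent from the counts. Rows that name no gene were left out: no feature 10.3% to 15.4%, several alignments 11.2% to 11.7% and overlapping genes 0.225% to 0.274%.

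TMM scaling, the quasi-likelihood test of edgeR 4.0.16 (R 4.3.3) and Benjamini-Hochberg adjustment were applied to genes that reached an RPKM >1 in any of the 12 libraries, which were fitted jointly with a mean for each group. The filter and the tool follow the study's methods. GENCODE vM21 gave the exon lengths (merged exons of a gene). Eng was taken from a fit without this filter, and the alternatives were not run for it one by one. Correlations used log2 CPM with a prior count of 2. RefSeq (GRCm38.p6) held 24930 of the symbols, 199 more were found by an older symbol and 101 were not found. Intervals cover 95%. The fit was also run on simulated counts in which few genes changed, as many up as down and alike in both genotypes. That run could not test the choice of scaling or the interaction in the real counts.

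The 10 genes, the pathway and marker lists and the tests were chosen with earlier results of these data known. From each pathway list the text names, among the genes called in WT with TGF-β, the 2 that rose most and the 2 that fell most, and the response genes. Results for some genes of the lists are not reported here. Likeness is given for the 3 genes with the highest r. Alternatives tried were library size without TMM, DESeq2 1.42.0, other filters on low expression, fits restricted to a pair of groups, a replicate block, CPM in place of RPKM for the ligand shares and receptor ratio, and leaving out each library. The ligand proteins were not analysed here.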

Additional observations from a re-analysis of the deposited data

Results flagged for a closer look

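Of the 9 genes tested, 6 had a TGF-β response that differed between KO and WT by the test of the interaction (edgeR's quasi-likelihood test, FDR <5%), 2 higher in KO and 4 lower, where 8.67% of all genes tested had a higher and 16.6% a lower one. The log2FC with TGF-β in KO minus that in WT was 0.21 for Tgfb2 and 0.18 for Tgfb3, both of which rose in both genotypes. It was -0.28 for Ltbp1, which also rose in both. It was -0.44 for Ltbp3, which fell in KO and rose in WT (a call lost with scaling by library size alone), -0.19 for Tgfbr1, and -0.20 for Tgfbr3, which fell in both. Without KO-TGF replicate 3 neither Tgfbr1 (adjusted p = 0.139) nor Tgfbr3 (adjusted p = 0.0969) was called.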

How the results depend on the processing

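Of 811 values of the 50 gene and contrast results under 18 alternatives, 790 kept their direction and their side of the threshold, 7 kept their direction but were no longer called and 14 changed sign. Eng has values only with the CPM filter and without a filter, and the latter repeats its main fit. Leaving out a library changes a contrast without its group only through the scaling, the shared spread and the genes tested. Of the 14 that changed sign, 2 had been called and were no longer, both with scaling by library size alone, so that 9 calls were lost in all. With scaling by library size alone the log2 fold change of Ltbp3 in WT became -0.044 (adjusted p = 0.122), that of Tgfbr1 with TGF-β in KO -0.076 (adjusted p = 0.0627) and that of Tgfbr1 between the genotypes in SD -0.032. With DESeq2 the interactions of Tgfb1 (0.013) and Tgfb1i1 (0.00459) changed sign near 0. Eng entered the test when genes were filtered on CPM >1 in 3 or more libraries or were not filtered. The genes called lower then became 2 for TGF-β in WT and 2 for KO against WT in SD. Leaving out single libraries gave 2 to 4 genes with a lower response in KO. It gave interactions of -0.040 to 0.042 for Tgfb1, of -0.040 to 0.036 for Tgfb1i1 and of -0.060 to 0.000802 for Tgfbr2, and -0.012 to 0.071 for Tgfbr1 between the genotypes in SD. Of the 7 calls lost with the direction kept, 5 were of the interaction of Tgfbr3 and 2 of Tgfbr1, and the cause was not tested. The median interaction of all genes, -0.031 in the main fit, was -0.0033 with DESeq2. It was 0.0079, 0.0059 and 0.0075 without replicate 1, 2 or 3 of KO-TGF. Without these, 1324, 1249 and 1252 of all genes had a higher response in KO and 1420, 1408 and 1378 a lower one, against 1000 and 1915.

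The summed ligand RPKM with scaling by library size alone was 107 in WT-SD, 167 in WT-TGF, 152 in KO-SD and 239 in KO-TGF. Genes of the lists were recomputed with that scaling and DESeq2. The deviations of libraries with the same replicate number had correlations of -0.026 to 0.077 over 18 pairs, 0 of them over 0.1. Their mean was 0.024, against -0.012 for pairs with other numbers. Whether libraries of the same number share an origin cannot be told from these values. With the replicate block, 8 genes were called higher and 1 lower with TGF-β in WT, and no call of the 9 genes changed. Over all genes the replicate block gave 4202 higher and 4248 lower in that comparison. Depth limits the values of Eng, with 22 to 52 counts per library, and of Tgfbi in WT-SD.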
